A study of Arabidopsis thaliana with 116 samples.

Results

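The 9 genes described here act in the root hair pathway of Arabidopsis thaliana, and they were taken from the deposited count table by their locus identifiers. They are 4 regulators of epidermal cell fate and hair growth, RHD6 (AT1G66470), RSL2 (AT4G33880), RSL4 (AT1G27740) and GL2 (AT1G79840), and 5 genes for wall and surface proteins of growing hairs, EXP7 (AT1G12560), EXPA18 (AT1G62980), COBL9 (AT5G49270), PRP3 (AT3G62680) and LRX1 (AT1G12040). All 9 of the 9 were found among the 27655 genes of the table, and all 9 were among the 21367 genes with enough reads to be tested in root. The seedlings were Col-0 plants grown for 5 days and then moved to medium with 2 µM abscisic acid (ABA), to medium with 150 µM salicylic acid (SA), or to control medium with neither hormone. ABA is the hormone of drought and salt responses, and SA that of pathogen responses. Roots were harvested at 1, 2, 4, 7, 24 and 48 h on ABA, SA or control medium, with 3 libraries in each of these groups, and at 0 h with 4 control libraries, and the design text describes the libraries of a group as biological replicates. These are the 58 root libraries in 19 groups; another 58 libraries of the series came from the shoots of the same design. The roots were harvested whole, so each value is an average over all cell types of the root.

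Root hairs are tubular outgrowths of single epidermal cells. Cells in the hair position switch on RHD6, a basic helix-loop-helix (bHLH) factor that starts hair formation, and RHD6 together with its close relative RSL1 acts upstream of RSL2 and RSL4, related bHLH factors that drive hair outgrowth and set hair length. GL2, a homeodomain factor, is made in the non-hair cells, where it represses the hair genes. Hairs then grow at the tip, and the wall there is loosened and built by proteins such as the expansins EXP7 and EXPA18, the membrane-anchored COBL9 (also named SHV2), the proline-rich protein PRP3 and the leucine-rich repeat extensin LRX1.

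Root libraries held between 5031509 and 102576624 counts, with a median of 29711587, and the fewest reads of any of the 9 genes in a root library was 16, for RSL4 in 1 library of SA roots at 2 h. Levels are given as CPM, the reads of a gene scaled to the same library size in every library, and a change was called where edgeR's quasi-likelihood test gave a Benjamini-Hochberg adjusted p under 0.05 over all tested genes. At 0 h, 8 of the 9 genes were 6.38 to 7.58 log2 units higher in root than in shoot, and GL2 was 1.19 log2 units higher. All 9 of these differences were called, as were 80.2% of the 22322 genes tested in both tissues. With root and shoot libraries scaled together, which gives other values than the scaling of the root libraries alone used below, PRP3 averaged 173 ± 17.8 CPM in root and 1.72 ± 1.1 CPM in shoot, while GL2, which also acts in leaf hairs, averaged 11.3 ± 0.522 CPM in root and 4.87 ± 1.17 CPM in shoot (SD, n = 4 each). The leaf gene RBCS1A was at 6.44 ± 1.97 CPM in these roots and 27200 CPM in the shoots.

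In control roots at 0 h the wall genes stood above the regulators per length of transcript. PRP3 was highest at 173 CPM per kilobase of exon, followed by EXP7 at 56, EXPA18 at 43.5, LRX1 at 31.9 and COBL9 at 21.1 CPM per kilobase. RHD6 stood at 16.7, RSL4 at 14.1, RSL2 at 11.7 and GL2 at 4.28 CPM per kilobase. In plain CPM the 4 control libraries at 0 h were close together for RHD6, at 23.7 to 24 CPM, and for GL2, at 13.1 to 14.3 CPM. PRP3 ranged there from 186 to 230 CPM.

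Control roots were not constant after transfer. Across the 7 control times, 8 of the 9 genes differed in a joint edgeR quasi-likelihood test, against 87% of all tested genes, and EXPA18 did not pass, with an adjusted p of 0.0542 and a range of 0.0337 to 0.137 over the other settings tried. COBL9 had the smallest adjusted p, 9.73e-11. Its control mean was 47.6 CPM at 0 h. At 1, 2 and 4 h it was 34.7, 21.9 and 36.9 CPM, and at 7, 24 and 48 h it was 24.5, 42.3 and 37.9 CPM, with the lowest means at 2 and 7 h. PRP3 stood at 211 CPM at 0 h and at 100 to 110 CPM on average at 2, 4 and 7 h, and then at 152 CPM at 24 h and 129 CPM at 48 h. The names of the control libraries carry 1 prefix at 0 and 1 h, another from 2 to 24 h and another at 48 h, so times on different sides of these borders cannot be told apart from that grouping. Each hormone value below is therefore read against the control of its own time.

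The upstream sequences of the 5 wall genes are shown because each of them holds a motif known from root hair genes. The root hair element is a short promoter sequence through which hair-cell expression is directed, and RSL4 is known to bind it. Its core was searched here as TG, then 3 or 4 bases of any kind, then GCACG or TCACG, on both strands of the 250 bases before each annotated gene start. The 250 bases are given 5′ to 3′ on the strand of the gene, with matches to the core in capitals, from RefSeq's TAIR10.1 assembly. EXP7 (chr1:4276255-4276504, plus strand), EXPA18 (chr1:23331313-23331562, plus strand), COBL9 (chr5:19974531-19974780, minus strand), PRP3 (chr3:23182472-23182721, plus strand) and LRX1 (chr1:4069742-4069991, plus strand) read as follows.
EXP7: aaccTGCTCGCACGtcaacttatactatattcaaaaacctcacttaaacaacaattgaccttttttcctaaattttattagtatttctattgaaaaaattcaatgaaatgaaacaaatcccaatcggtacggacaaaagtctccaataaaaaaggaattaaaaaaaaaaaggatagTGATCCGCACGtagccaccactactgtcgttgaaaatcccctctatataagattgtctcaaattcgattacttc
EXPA18: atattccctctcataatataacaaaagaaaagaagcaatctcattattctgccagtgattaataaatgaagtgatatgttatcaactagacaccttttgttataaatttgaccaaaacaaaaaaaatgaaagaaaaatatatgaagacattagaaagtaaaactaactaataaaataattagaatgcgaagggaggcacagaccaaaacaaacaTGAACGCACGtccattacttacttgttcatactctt
COBL9: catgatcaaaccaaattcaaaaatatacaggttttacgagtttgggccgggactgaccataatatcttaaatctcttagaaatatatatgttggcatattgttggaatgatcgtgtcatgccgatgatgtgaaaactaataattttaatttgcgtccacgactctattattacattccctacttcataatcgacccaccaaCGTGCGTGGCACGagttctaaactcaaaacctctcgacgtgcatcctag
PRP3: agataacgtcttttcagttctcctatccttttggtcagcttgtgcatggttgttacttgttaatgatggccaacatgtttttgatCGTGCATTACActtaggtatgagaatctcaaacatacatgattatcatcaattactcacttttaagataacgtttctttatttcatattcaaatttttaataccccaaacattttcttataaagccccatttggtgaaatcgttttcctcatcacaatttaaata
LRX1: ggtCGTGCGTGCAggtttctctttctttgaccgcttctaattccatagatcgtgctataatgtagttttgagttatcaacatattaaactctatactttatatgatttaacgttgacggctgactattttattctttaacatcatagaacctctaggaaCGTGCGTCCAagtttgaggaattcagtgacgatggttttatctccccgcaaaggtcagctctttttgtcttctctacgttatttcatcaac

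Matches lay in all 5 wall genes and in 0 of the 4 regulators, while 1130 of 27443 promoters of the same length held one, which is 4.12%. Among the other root hair genes followed below, 3 of 16 other wall genes (PRP1, PRPL1 and RHS10), 2 of 16 tip growth genes, 0 of 6 other bHLH factors and 0 of 11 patterning genes held one. EXP7 had matches from base -246 to -237 and from -74 to -64 relative to its start, both on the gene strand. EXPA18 had one from -36 to -27 on the gene strand, and PRP3 had one from -165 to -155 on the opposite strand. LRX1 had matches from -247 to -238 and from -91 to -82, both on the opposite strand. The 2 matches of COBL9, from -49 to -39 and from -47 to -37, lie on opposite strands and overlap each other. The ABRE core through which ABA-activated factors bind (ACGTGG or ACGTGT) was in 0 of the 9 windows and in 16% of all promoters. The G-box (CACGTG) was in 0 of 9 and 6.49% of all, and the L1 box (TAAATGCA or TAAATGTA), bound by homeodomain factors of the family of GL2, in 0 of 9 and 4.49% of all. The W-box (TTGACC or TTGACT), bound by WRKY factors, was in EXP7, EXPA18 and LRX1 and in 28.4% of all promoters. No matches of different motifs overlapped each other in these windows. These matches describe the letters only. The root hair element was already known from root hair genes, so its matches in the 5 wall genes are not independent evidence.

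**Figure D1:**
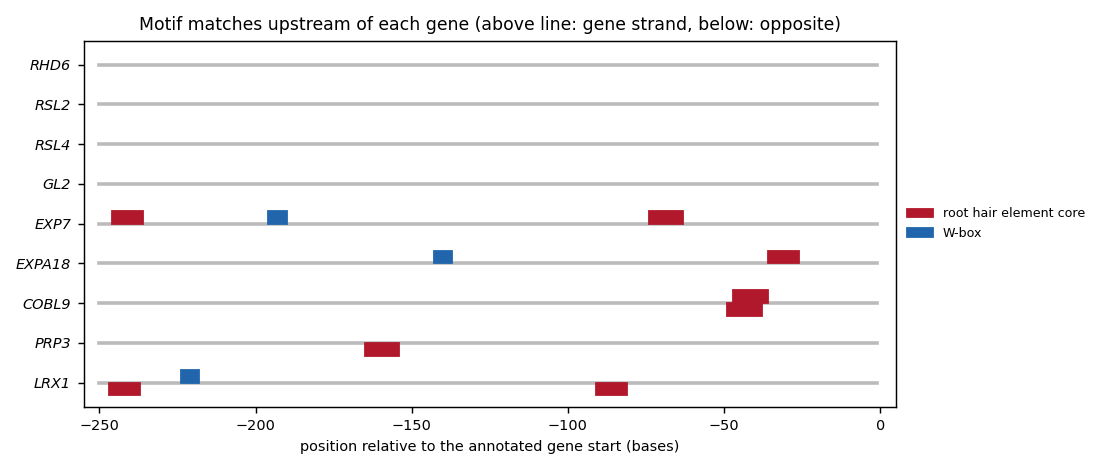
Motif matches in the 250 bases before each annotated gene start, with position relative to the start in bases on the x axis and 1 line per gene; marks above a line are on the gene strand and marks below it on the opposite strand. The 5 wall genes carry 1 or 2 matches of the root hair element core each and the 4 regulators carry 0.

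SA lowered nearly all of these genes in root. RHD6, RSL2 and RSL4 had their lowest share of the control mean at 2 h, EXP7, EXPA18, PRP3 and LRX1 had low values at 4 h and again at 48 h, COBL9 at 2 h and 48 h, and GL2 was lower only from 4 h on. Against the control of the same time, 8, 8, 8, 5, 7 and 9 of the 9 genes fell at 1, 2, 4, 7, 24 and 48 h, in that order of times, and the only rises were of GL2 at 1 h and of RHD6 at 4 h. The median log2 fold change of the 9 genes at these times was -0.57, -2.12, -1.67, -0.53, -0.81 and -2.49, against medians between -0.03 and 0 over all tested genes. SA moved a large part of the root transcriptome, and the share of all tested genes called in either direction was 45.2%, 61.5%, 61.6%, 58.3%, 65% and 74.9%, in the same order. The share called lower was 22.5%, 32.1%, 30.8%, 30.4%, 32.9% and 38.7%. In whole roots, fewer hair cells and less RNA per hair cell cannot be told apart. The joint test over the 6 times called 9 of 9 genes (92.6% of all), and the test of whether the SA effect differed between times also called 9 of 9 (81% of all).

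**Figure D2:**
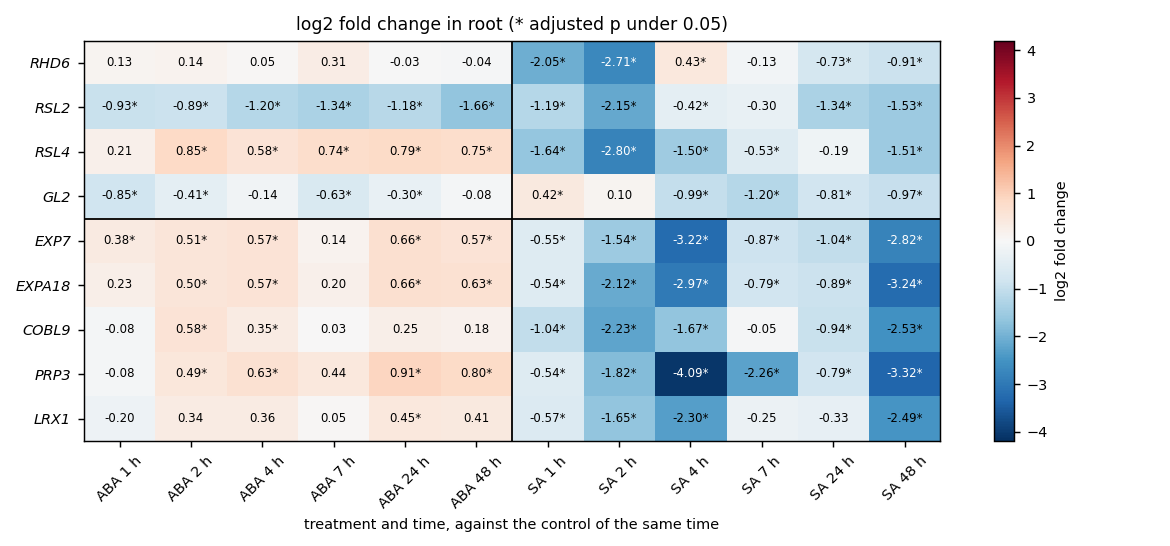
Log2 fold changes in root of the 9 genes (rows) for ABA and SA at each time against the control of that time (columns), colour-coded, with a star where the adjusted p was under 0.05. In SA roots PRP3 reaches -4.09 at 4 h and every gene is starred at 48 h; in ABA roots RSL2 is below 0 at all 6 times and RSL4 above 0.

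Among the regulators, RHD6, which starts hair formation, showed the sharpest swing under SA. At 1 h it had 6.16, 3.43 and 2.32 CPM in SA roots, against 16.7, 16 and 18.5 CPM in control roots, and at 2 h it had 3.09, 3.66 and 4.34 CPM in SA roots, against 23.7, 23.6 and 23.9 CPM in control roots. At both times every SA library lay far below every control library, and the log2 fold changes were -2.05 ± 0.162 and -2.71 ± 0.168 (SE; edgeR adjusted p = 1.14e-14 and 9.59e-19). At 4 h the order was turned round, with 34.2, 36.6 and 32.7 CPM in SA roots, against 26.6, 25.6 and 24.5 CPM in control roots. The groups again did not overlap, and the rise of 0.43 ± 0.135 log2 units was called (edgeR adjusted p = 0.0049). RHD6 then stood at 91.5% of the control mean at 7 h, where it was not called, and fell to 59.9% at 24 h and 53.4% at 48 h.

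RSL4, whose level is known to set hair length, was called lower at 1, 2, 4, 7 and 48 h. At 2 h it had 1.82, 1.77 and 1.23 CPM in SA roots, against 9.96, 13.4 and 10.4 CPM in control roots. This was 14.3% of the control mean and a log2 fold change of -2.80 ± 0.184 (edgeR adjusted p = 7.18e-18). It stood at 31.4% of the control mean after 1 h and 35.6% after 4 h. At 7 h it had 9.31, 10.4 and 10.1 CPM in SA roots, against 15, 14.6 and 13.6 CPM in control roots. This was 69% of the control mean, with no overlap and a log2 fold change of -0.53 ± 0.143 (edgeR adjusted p = 0.00153). At 24 h, where it was not called (edgeR adjusted p = 0.21), it had 87.1%. At 48 h it was low again, with 6.53, 5.37 and 6.05 CPM in SA roots, against 19.2, 14.1 and 17.5 CPM in control roots. The 48 h groups did not overlap, and the log2 fold change there was -1.51 ± 0.151 (edgeR adjusted p = 2.17e-12).

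RSL2, the partner of RSL4 in hair outgrowth, fell at 5 of 6 times and had its lowest SA values at 2 h. It then had 1.9, 1.99 and 2.23 CPM in SA roots, against 8.09, 10 and 8.9 CPM in control roots, which is a log2 fold change of -2.15 ± 0.224 (edgeR adjusted p = 1.7e-11). All SA libraries were below all control libraries. At 4 h it was close to the control, at 8.1, 8.93 and 11.1 CPM in SA roots, against 11.7, 14.1 and 12 CPM in control roots. That fall of 0.42 log2 units had an adjusted p of 0.0415, and it was lost under 6 of 11 other settings, among them DESeq2 in place of edgeR and the fits without SA replicate 1, SA replicate 2, control replicate 2 or control replicate 3 (range of adjusted p, 0.0168 to 0.183). At 24 and 48 h RSL2 was at 38.9% and 35.1% of the control mean.

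GL2, the repressor in non-hair cells, moved on another schedule. At 1 h it had 20.2, 19.5 and 26.4 CPM in SA roots, against 17.2, 15.6 and 16.5 CPM in control roots, a rise of 0.42 ± 0.108 log2 units (edgeR adjusted p = 0.00117). At 2 h the groups overlapped and no change was called. From 4 h on it was lower in SA roots at every time, and at 7 h it had 6.24, 9.39 and 7.97 CPM in SA roots, against 18.6, 16.2 and 19.6 CPM in control roots. The log2 fold change there was -1.20 ± 0.115 (edgeR adjusted p = 1.78e-12), and at 24 and 48 h GL2 was at 57% and 51.7% of the control mean. GL2 was thus called lower at 4, 7, 24 and 48 h, as were EXP7, EXPA18 and PRP3. The annotation places 2 other genes over parts of GL2, AT1G79850 on the opposite strand and AT1G09927 on the same strand, and whether reads were counted by strand is not given in the sources used here.

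The 5 wall genes all fell within 1 h of SA, and at 4 h they stood between 5.97% and 31.4% of the control mean. PRP3, a structural wall protein of hairs, fell furthest. At 4 h it had 7.33, 8.86 and 3.55 CPM in SA roots, against 125, 114 and 91.5 CPM in control roots. This was 5.97% of the control mean, with no overlap and a log2 fold change of -4.09 ± 0.251 (edgeR adjusted p = 7.44e-19). At 7 h PRP3 was still the lowest of the 5 relative to the control, with 16.3, 29.7 and 19.9 CPM in SA roots, against 101, 98.3 and 118 CPM in control roots. At 24 h it was at 57.7% of the control mean, and at 48 h it had 15.8, 11.7 and 11.6 CPM in SA roots, against 126, 120 and 142 CPM in control roots.

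The 2 hair expansins, which loosen the wall, followed nearly the same course. At 4 h EXP7 had 4.84, 5.83 and 4.47 CPM in SA roots, against 50.1, 47.8 and 42.8 CPM in control roots (log2 fold change -3.22 ± 0.131, edgeR adjusted p = 1.93e-25). At 24 h it had 24.5, 27.5 and 30 CPM in SA roots, against 53.9, 54.6 and 60.4 CPM in control roots, and at 48 h it had 7.41, 6.66 and 7.21 CPM in SA roots, against 49.7, 47.5 and 52.8 CPM in control roots. None of these groups overlapped. EXPA18 stood at 12.9%, 57.8%, 54% and 10.5% of the control mean at 4, 7, 24 and 48 h. At the last of these it had 5.42, 3.9 and 6.18 CPM in SA roots, against 44.7, 49.9 and 52.4 CPM in control roots (log2 fold change -3.24 ± 0.184, edgeR adjusted p = 1.33e-20). The most similar exon stretch of at least 100 nt between EXP7 and EXPA18 is 306 nt at 78.8% identity. This is below the limit of 90% used to mark near-identical copies, and none of the 9 genes had such a copy. Each of the 2 expansin genes overlaps an annotated gene on the opposite strand, AT1G12570 for EXP7 and AT1G62978 for EXPA18.

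COBL9, an anchored wall-side protein needed for tip growth, was the 1 wall gene of the 5 that stood lower relative to the control at 2 h (21.6%) than at 4 h (31.4%). At 2 h it had 4.97, 5.32 and 3.94 CPM in SA roots, against 19.3, 24.8 and 21.7 CPM in control roots (log2 fold change -2.23 ± 0.158, edgeR adjusted p = 9.02e-17). At 7 h the groups overlapped, with 22.1, 25.7 and 23.2 CPM in SA roots, against 24.5, 23.6 and 25.3 CPM in control roots, and COBL9 was not called. It fell again to 52.1% of the control mean at 24 h and 17.3% at 48 h. LRX1, which shapes the hair wall, had 9.72, 13.7 and 9.28 CPM in SA roots at 4 h, against 57.8, 55.9 and 46.2 CPM in control roots. It was not called at 7 or 24 h, at 84.2% and 79.3% of the control mean, and at 48 h it had 9.63, 7.73 and 7.74 CPM in SA roots, against 45.5, 42.6 and 52.3 CPM in control roots. The 48 h groups were far apart (log2 fold change -2.49 ± 0.189, edgeR adjusted p = 3.01e-16).

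At 1 h the falls of the wall genes were small, from -0.54 to -1.04 log2 units. Without control replicate 2 of that time, EXPA18, PRP3 and LRX1 were no longer called, and the count of called genes was 6 (adjusted p = 0.0646, 0.217 and 0.0585, against ranges over all settings of 0.00119 to 0.0646, 0.0186 to 0.217 and 0.00207 to 0.0585). PRP3 was also lost with DESeq2 (adjusted p = 0.0509) and in edgeR without SA replicate 1 (0.0644) or SA replicate 2 (0.146). At 2, 4 and 48 h all 5 wall genes were called under every setting tried.

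**Figure D3:**
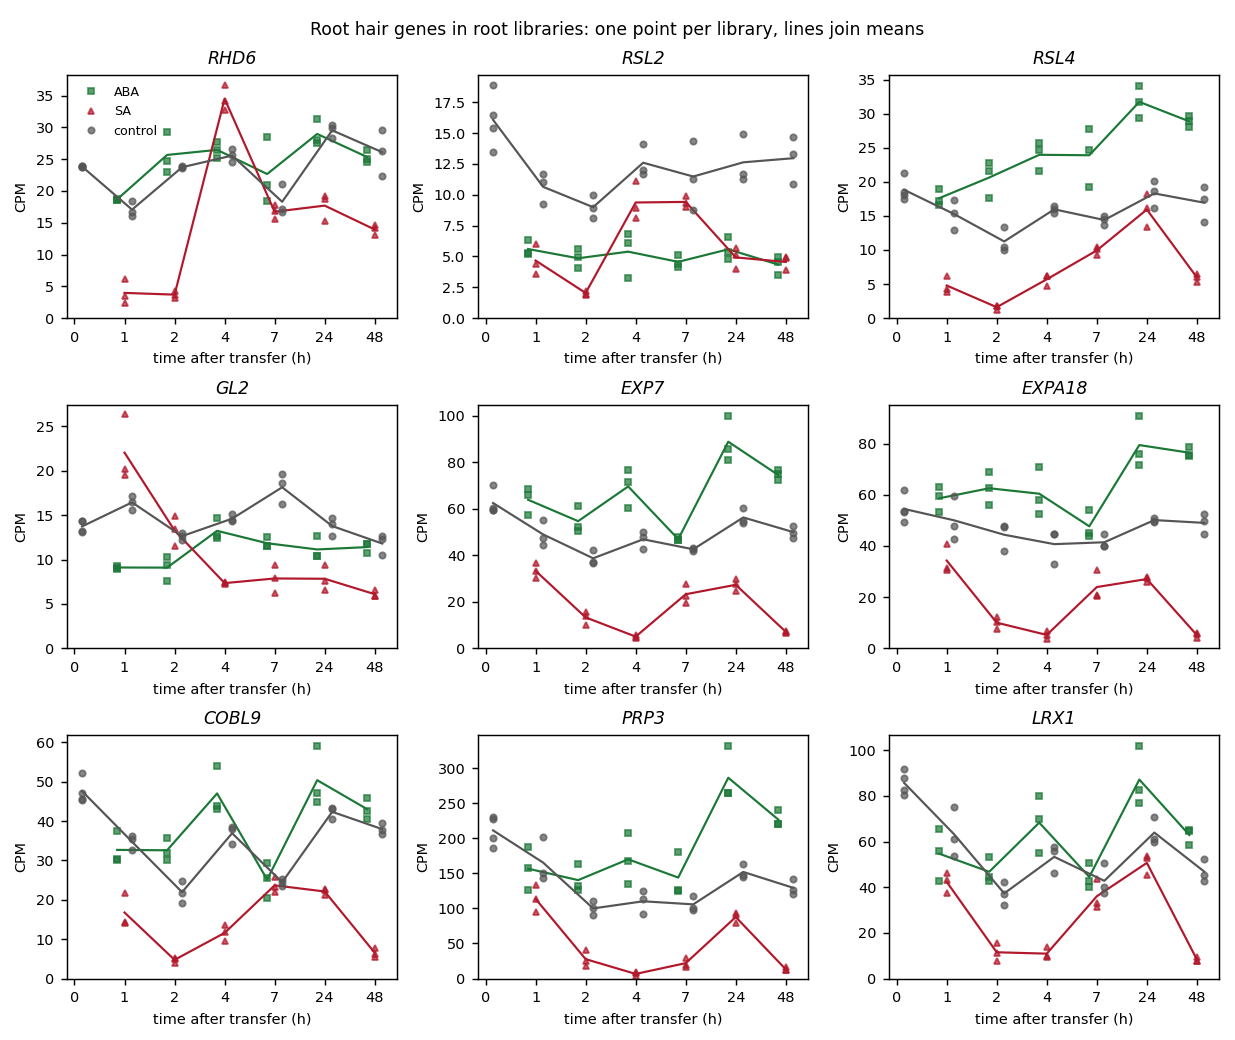
CPM of each gene in every root library (y axis, from 0) by time after transfer in h (x axis), 1 panel per gene, with 1 point per library and lines through the group means for ABA, SA and control roots. The SA points of the wall genes lie below the control points at 2, 4 and 48 h and are closer to them at 7 and 24 h than at 4 and 48 h. ABA points of RSL4 lie above the control points from 2 h on.

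The SA effect on the wall genes and RSL4 thus had an early and a late low with a weaker stretch between them. This was tested directly after the values had been seen. From 4 h to 7 h the SA effect changed in 7 of the 9 genes, against 12.7% of all tested genes. The effect on EXP7 was 2.36 ± 0.173 log2 units less negative at 7 h than at 4 h, and the differences were 2.19 for EXPA18, 2.05 for LRX1, 1.83 for PRP3, 1.63 for COBL9 and 0.97 for RSL4 (largest edgeR adjusted p of these 6, 8.05e-04). For RHD6, which was above control at 4 h, the difference was -0.56 (edgeR adjusted p = 0.0479), and this call was lost under 14 of 16 other settings (range 0.0339 to 0.15). From 24 h to 48 h the SA effect changed in 6 of the 9 genes, against 27.8% of all, and all 6 were lower at 48 h, the direction of 17.8% of all. The differences were -2.53 for PRP3, -2.35 for EXPA18, -2.16 for LRX1, -1.79 for EXP7, -1.59 for COBL9 and -1.32 for RSL4. RHD6, RSL2 and GL2 did not pass this test. The 48 h minus 4 h differences of EXP7, EXPA18, LRX1, RSL4 and GL2 lay between -0.27 and 0.40 and were not called (for EXP7, at 0.40, adjusted p over the other settings ran from 0.0153 to 0.123). That comparison called 4 of the 9 genes, against 50.5% of all, with RHD6 at -1.34, RSL2 at -1.10, COBL9 at -0.86 and PRP3 at 0.77, the last lost under 6 of 16 other settings (range of adjusted p, 0.00995 to 0.209).

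**Figure D4:**
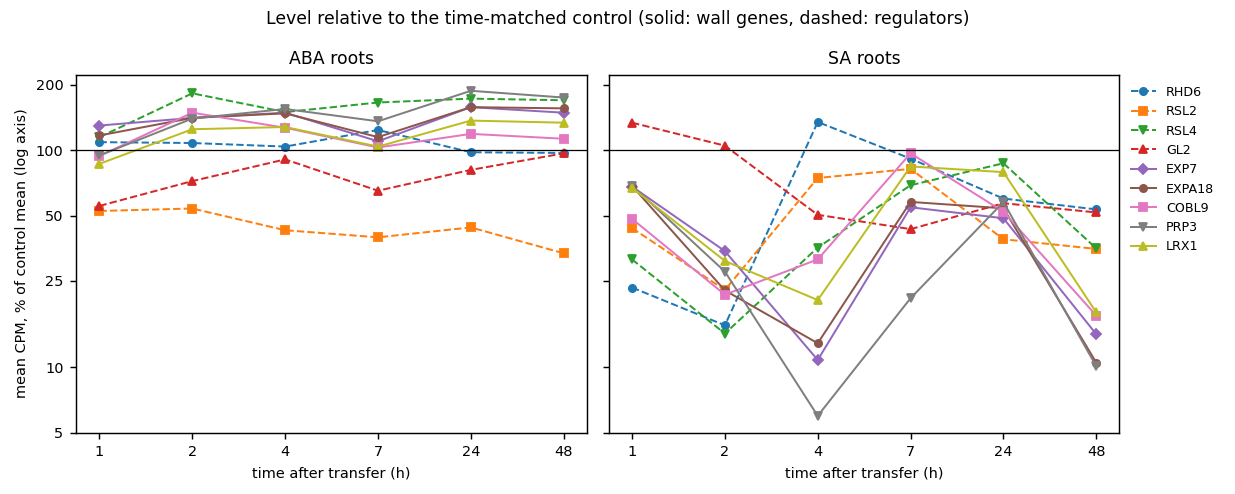
Mean CPM as a percentage of the mean of the control of the same time (y axis, log scale, 100 marked) by time in h (x axis), for ABA roots on the left and SA roots on the right, with solid lines for wall genes and dashed lines for regulators. In SA roots EXP7, EXPA18, PRP3 and LRX1 dip at 4 h (PRP3 to 5.97%) and COBL9 at 2 h (21.6%); the 5 wall genes stand between 20.8% and 96.8% at 7 h and between 48.6% and 79.3% at 24 h, and dip again at 48 h (10.1% to 17.9%).

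At 24 h, SA replicates 2 and 3 carry a library-name prefix that differs from the one of the controls and of SA replicate 1. With SA replicate 1 alone against the controls, an arm of 1 library that has no spread of its own and is given without a test, the log2 fold changes lay between -1.65 for RSL2 and -0.43 for RSL4, against -1.34 and -0.19 with all 3. The SA effect at 24 h also enters the differences between 24 h and 48 h above. Those differences were not refitted with SA replicate 1 alone, so they cannot be told apart from the prefix.

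Markers of other root cell types also moved in SA roots. Of 13 such markers, 9 fell and 1 rose at 48 h, where 74.9% of all tested genes were called and 38.7% were called lower, and their summed level was 218 to 225 CPM in SA roots, against 332 to 337 CPM in control roots. At 4 h, 7 fell and 2 rose (61.6% of all called, 30.8% lower), with sums of 272 to 280 CPM in SA roots, against 346 to 361 CPM in control roots, and at 2 h 8 fell and 0 rose (61.5% of all called, 32.1% lower), with sums of 244 to 264 CPM in SA roots, against 320 to 340 CPM in control roots. The cortex marker CO2 fell furthest, with 0.0222 ± 0.0193 CPM in SA roots and 2.38 ± 0.406 CPM in control roots at 48 h (SD, n = 3 each). That SA value lies at the floor, since 3 reads stood for 0.0996 to 0.11 CPM in these libraries. CO2 was also low in untreated roots at 0 h, at 1.92 CPM against 28.3 CPM in shoots, with both tissues scaled together. At 48 h the mitosis marker CYCB1;1 had 4.57 ± 0.618 CPM in SA roots and 18.2 ± 0.52 CPM in control roots (SD, n = 3 each). The median log2 fold change of the 13 markers was -0.71 at 48 h. None of the 13 had a level of 0 in a whole group. Markers of shoot tissue summed to 17.7 to 20.5 CPM in SA roots at 48 h, against 4.88 to 67.1 CPM in control roots. The part of these shifts in the falls of the 9 genes was not tested.

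ABA gave a smaller and divided response. RSL2 fell at all 6 times, RSL4 rose at 5, the wall genes rose at between 1 time (LRX1) and 5 times (EXP7), GL2 fell at 4, and RHD6 was called at none. The counts of called genes were 3, 7, 6, 3, 7 and 5 at 1, 2, 4, 7, 24 and 48 h, against 40.5%, 52.6%, 50.3%, 51%, 39.4% and 32.1% of all tested genes. The median log2 fold change of the 9 genes in the same order was -0.08, 0.49, 0.36, 0.14, 0.45 and 0.41, against medians between -0.04 and 0 over all tested genes. At 7 h the count was 5 without ABA replicate 1. Markers of other root cell types also moved in ABA roots. At 7 h, 2 of the 13 rose and 7 fell, with summed levels of 277 to 302 CPM in ABA roots, against 314 to 335 CPM in control roots. At 4 h, 3 rose and 6 fell, with sums of 345 to 357 CPM in ABA roots, against 346 to 361 CPM in control roots, and 4 to 6 of the 13 were called at each of the other times. Their part in the ABA values of the 9 genes was not tested. These comparisons use the same control libraries as those of SA. The joint test over the 6 times called 8 of 9 genes (76.8% of all), all but RHD6 (edgeR adjusted p = 0.364).

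RSL2 and RSL4 moved in opposite directions under ABA. At 48 h RSL2 had 4.98, 3.47 and 4.57 CPM in ABA roots, against 10.9, 13.3 and 14.7 CPM in control roots (log2 fold change -1.66 ± 0.202, edgeR adjusted p = 2.97e-09). RSL4 at the same time had 29.6, 28.1 and 28.9 CPM in ABA roots, against 19.2, 14.1 and 17.5 CPM in control roots (log2 fold change 0.75 ± 0.138, edgeR adjusted p = 1.72e-05). Neither gene's groups overlapped. At 2 h RSL2 had 5.6, 4.93 and 4.03 CPM in ABA roots, against 8.09, 10 and 8.9 CPM in control roots, and RSL4 had 22.7, 21.6 and 17.6 CPM in ABA roots, against 9.96, 13.4 and 10.4 CPM in control roots. Over the 6 times the log2 fold changes of RSL2 lay between -1.66 and -0.89. Those of RSL4 lay between 0.58 and 0.85 where called, and at 1 h the value was 0.21 (edgeR adjusted p = 0.229). The direction of each gene was the same under every setting tried.

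RHD6, upstream of both factors, stayed near its control level on ABA. Its log2 fold changes lay between -0.04 and 0.31, and at 24 h it had 28, 27.6 and 31.3 CPM in ABA roots, against 29.9, 30.3 and 28.4 CPM in control roots. The highest value, 0.31 at 7 h, had an adjusted p of 0.0615 and passed without ABA replicate 1 or 3 or without control replicate 1, and with DESeq2 (range over all settings, 0.0136 to 0.59). GL2 fell at 1, 2, 7 and 24 h. At 1 h it had 9.28, 9.1 and 8.93 CPM in ABA roots, against 17.2, 15.6 and 16.5 CPM in control roots, with no overlap and a log2 fold change of -0.85 ± 0.112 (edgeR adjusted p = 1.54e-08). At 4 and 48 h its log2 fold changes were -0.14 and -0.08 and were not called. The fall at 24 h, -0.30, was lost without ABA replicate 1, ABA replicate 2, control replicate 1 or control replicate 3 (range of adjusted p, 0.00922 to 0.123).

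The wall genes were called higher on ABA at between 1 of the 6 times (LRX1) and 5 (EXP7), and differences between these genes were not tested. The highest mean of PRP3 over the 19 root groups was that of ABA roots at 24 h. At that time PRP3 had 264, 264 and 331 CPM in ABA roots, against 148, 145 and 163 CPM in control roots (log2 fold change 0.91 ± 0.206, edgeR adjusted p = 3.09e-04). The groups did not overlap. EXP7 rose at 5 times, all but 7 h, by 0.38 to 0.66 log2 units, and at 48 h it had 74.8, 76.6 and 72.2 CPM in ABA roots, against 49.7, 47.5 and 52.8 CPM in control roots. EXPA18 rose at 4 times by 0.50 to 0.66 log2 units, and PRP3 at the same 4 times, 2, 4, 24 and 48 h, by 0.49 to 0.91. COBL9 rose at 2 h and 4 h, by 0.58 and 0.35, and LRX1 at 24 h, by 0.45. At 2 and 4 h LRX1, at 0.34 and 0.36, missed the threshold (edgeR adjusted p = 0.0882 and 0.0615). It passed with only the compared libraries (0.0364 at 2 h and 0.0476 at 4 h). It also passed at 2 h without control replicate 2 (0.0437) and at 4 h without ABA replicate 1 (0.0178). The ranges over all settings were 0.0364 to 0.347 at 2 h and 0.0178 to 0.349 at 4 h. At 1 h COBL9, PRP3 and LRX1 had log2 fold changes of -0.08, -0.08 and -0.20 and were not called. LRX1 at 48 h, at 0.41, missed the threshold (edgeR adjusted p = 0.0554) and passed with the replicate block (0.0352), with DESeq2 (0.0465), with only the compared libraries (9.83e-04) and without control replicate 3 (0.0401), in a range over all settings of 9.83e-04 to 0.144. At 7 h 0 of the 5 wall genes were called by edgeR in the main fit or by DESeq2, with log2 fold changes between 0.03 and 0.44. Of the 5, 1 had an unadjusted p under 0.05 in edgeR. PRP3, at 0.44 (edgeR adjusted p = 0.0694), passed in edgeR with only the compared libraries (0.0141). It also passed without ABA replicate 1 (0.0386) or without control replicate 3 (0.0499), in a range over all settings of 0.0141 to 0.39. Of the calls above, PRP3 at 2 h was lost with DESeq2, without the filter on low counts, or without ABA replicate 1 or 2 or control replicate 1 or 3, PRP3 and COBL9 at 4 h without ABA replicate 2 or control replicate 3, EXPA18 at 2 h without control replicate 1, and LRX1 at 24 h without ABA replicate 3 or control replicate 1 or 2 (largest adjusted p of these settings, 0.19, 0.104, 0.195, 0.0642 and 0.159 in that order).

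The ABA effect differed between times in 3 of the 9 genes, RSL4, GL2 and COBL9, against 43.7% of all tested genes (edgeR adjusted p = 0.0452, 4.46e-04 and 0.0358). Without replicate 2 or without replicate 3 of every group the count was 1, and without replicate 1 it was 5, with GL2 called in each of these fits. Of the differences between 48 h and 4 h, 0 of the 9 were called by edgeR, against 15% of all tested genes, 0 were called by DESeq2, and 0 had an unadjusted p under 0.05 in edgeR. The log2 differences lay between -0.46 and 0.17.

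Set directly against each other, ABA roots held more RNA of the wall genes and RSL4 than SA roots at most times. The number of the 9 genes called was 6, 9, 9, 7, 8 and 8 at 1, 2, 4, 7, 24 and 48 h, against 53.6%, 65.7%, 64.5%, 63.1%, 64.5% and 77.2% of all tested genes. The widest gap was in PRP3 at 4 h, with 135, 208 and 167 CPM in ABA roots, against 7.33, 8.86 and 3.55 CPM in SA roots (log2 fold change 4.72 ± 0.255, edgeR adjusted p = 2.9e-21). RSL4, EXP7 and EXPA18 were higher in ABA roots at all 6 times. Lower in ABA roots than in SA roots were GL2 at 1 h (-1.27) and 2 h (-0.51), RHD6 at 4 h (-0.38) and RSL2 at 4 h (-0.78) and 7 h (-1.04), all called. RSL2 was higher in ABA roots at 2 h (1.26) and was not called at 1, 24 and 48 h. At 48 h RSL2 averaged 4.34 ± 0.781 CPM in ABA roots and 4.56 ± 0.592 CPM in SA roots (SD, n = 3 each), a log2 difference of -0.14 ± 0.21 (SE). RHD6 at 7 h, higher in ABA roots by 0.44, was lost without ABA replicate 2 (adjusted p = 0.187, range 9.35e-04 to 0.187).

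Other genes of the same pathway were followed in lists that had been drawn up with earlier results of these data known. Of 16 other wall genes of root hairs, SA lowered 10 after 1 h, 15 after 2 h and all 16 from 4 to 48 h, and 1 rose after 2 h. The share of all tested genes called lower was 22.5% at 1 h, 32.1% at 2 h and between 30.4% and 38.7% from 4 h on. Their median log2 fold change at 4, 7, 24 and 48 h was -2.91, -1.29, -1.13 and -3.41. At 48 h, XTH26, a wall-remodelling xyloglucan enzyme, had 0.346 ± 0.138 CPM in SA roots and 17.9 ± 1.31 CPM in control roots (log2 fold change -5.70), and its relative XTH12 had 2.75 ± 0.56 CPM in SA roots and 63.3 ± 6.77 CPM in control roots. The smallest falls were those of CSLD3, a cellulose synthase-like protein of hair tips (-0.98), and RHS10, a receptor-like kinase that limits hair growth (-1.79). On ABA, 12 of the 16 rose and 1 fell at 2, 4, 24 and 48 h, times at which 52.6%, 50.3%, 39.4% and 32.1% of all tested genes were called in either direction. At 2 h, PRP1, the closest match to PRP3 in the search of exon sequences, had 95.6 ± 10.8 CPM in ABA roots and 34.3 ± 4.46 CPM in control roots, XTH13 rose by 1.44 log2 units, PRPL1 rose by 0.36, and the peroxidase PRX01 fell by 0.90 log2 units.

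Of 16 genes of the tip growth machinery, SA lowered 13 and raised 3 at 48 h, with a median log2 fold change of -0.86, and lowered 13 and raised 1 at 4 h. Of all tested genes, 74.9% were called and 38.7% called lower at 48 h, and 61.6% and 30.8% at 4 h. At 48 h, MRH6 had 2.46 ± 0.669 CPM in SA roots and 25.2 ± 1.3 CPM in control roots, and CAP1 (ERULUS), a receptor-like kinase of hair tips, had 1.94 ± 0.1 CPM in SA roots and 12.6 ± 0.709 CPM in control roots. FER, a receptor kinase that is also used outside hairs, rose by 0.33 log2 units and the potassium carrier TRH1 by 0.14. On ABA at 2 h, 11 of the 16 rose and 0 fell, where 52.6% of all tested genes were called in either direction. The rises were led by the kinase IRE (0.59) and CAP1 (ERULUS) (0.57), with TRH1 at 0.22 and RHD4, a phosphoinositide phosphatase, at 0.19.

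**Figure D5:**
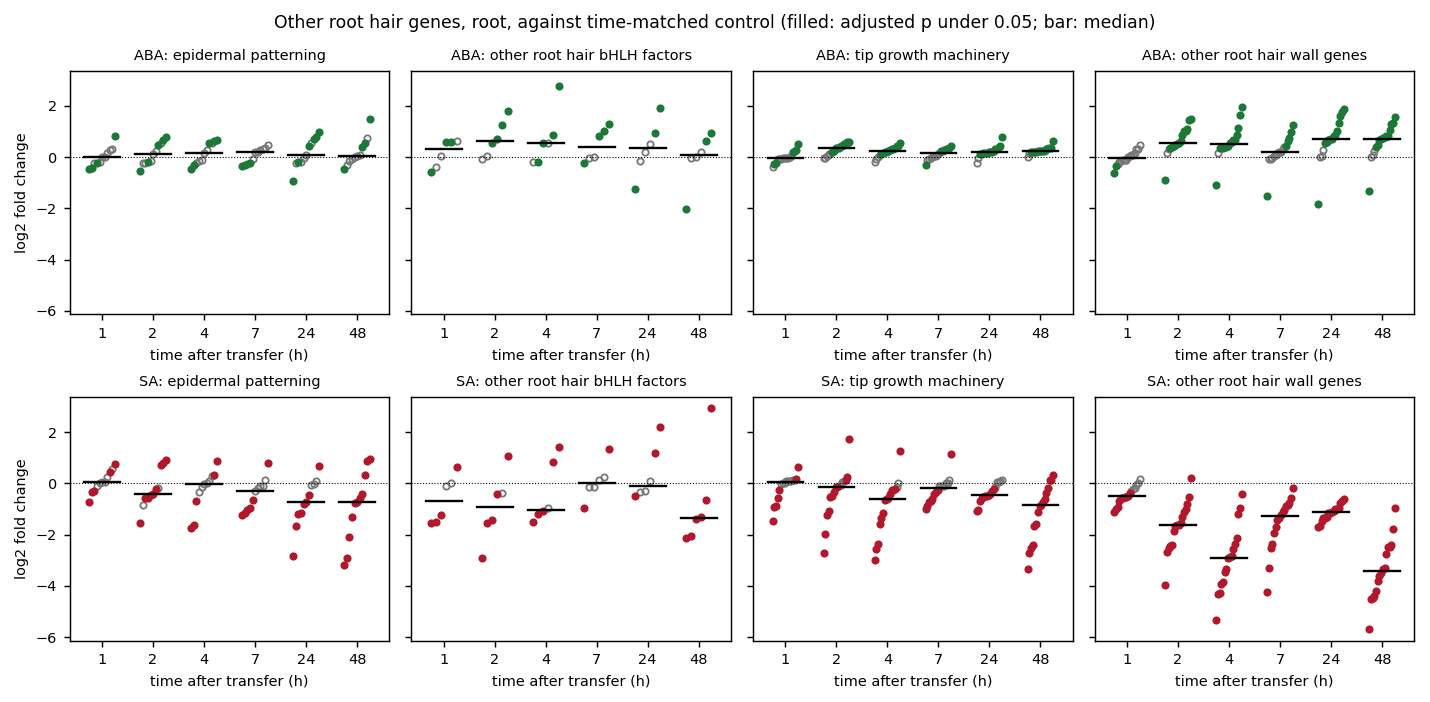
Log2 fold changes against the control of the same time (y axis) by time in h (x axis) for 4 lists of other root hair genes (columns of panels) in ABA roots (upper row) and SA roots (lower row), with 1 point per gene, filled where the adjusted p was under 0.05, and a bar at the median. In SA roots the median of the 16 other wall genes is -2.91 at 4 h and -3.41 at 48 h, and in ABA roots 0.54 at 2 h.

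Of the 6 other bHLH factors of hair growth, SA lowered 5 at 48 h and raised LRL1, at a time when 74.9% of all tested genes were called. LRL1 had 381 ± 20.8 CPM in SA roots and 49.6 ± 1.45 CPM in control roots at 48 h (SD, n = 3 each), a log2 fold change of 2.94 ± 0.11 (edgeR adjusted p = 2.86e-27). Its relatives LRL2 and LRL3 fell at that time by 0.64 and 2.13 log2 units. On ABA at 2 h, LRL1 had 130 ± 12 CPM in ABA roots and 54.9 ± 3.09 CPM in control roots, LRL3 rose by 0.54 log2 units, and RSL1, the close relative of RHD6, rose by 0.71. Among 11 epidermal patterning genes, SA lowered 8 and raised 3 at 48 h, against the same 74.9% of all. EGL3 and GL3, bHLH partners in the complex that switches on GL2, had 1.27 ± 0.367 and 3.25 ± 0.141 CPM in SA roots, against 11.5 ± 1.27 and 14.1 ± 0.192 CPM in control roots. The receptor-like kinase SCM, which reads the position of a cell, rose by 0.97 log2 units, and TTG1, a further member of that complex, by 0.34. On ABA at 2 h, 3 of the 11 rose and 2 fell, a share of called genes below the 52.6% of all tested genes, with EGL3 at 0.77, TTG1 at -0.21 and CPC, a mobile factor that opposes GL2 in hair cells, at -0.56.

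Levels of the wall genes ran closely together over the 19 root groups. Pearson's r of the mean log2(CPM + 0.5) lay between 0.808 and 0.99 for the 10 pairs among the 5 wall genes, and between 0.136 and 0.905 for the 20 pairs of a wall gene with a regulator. EXP7 and EXPA18 were the most alike pair, at 0.99. Of the regulators, RSL4 ran closest to the wall genes (0.739 with PRP3 to 0.905 with COBL9), and RSL2 least closely with PRP3 (0.136). These are descriptions over 19 groups, most of which differ by hormone, and carry no test. Among the 15729 genes that averaged 5 CPM or more, those most like EXP7 were RHS14 (0.991), RHS19 (0.988), which is the peroxidase PRX73 of the wall list, and AT3G49960 (0.979). EXPA18 was most like RHS14 (0.989), RHS19 (0.986) and MOP10 (0.982), which is PRPL1 of that list. PRP3 was most like the extensin genes EXT13 (0.991) and EXT12 (0.978) and the enzyme gene XTH12 (0.985). COBL9 was most like ROPGEF4 (0.981), AT3G07070 (0.964) and EXO70C2 (0.963), and LRX1 was most like AT1G30870 (0.97), RAP2.11 (0.967) and AT5G43230 (0.966). For the regulators the closest genes were less close, with KUP6 (0.939) for RHD6, AT1G01630 (0.957) for RSL4, AT5G50760 (0.906) for RSL2 and PERK14 (0.918) for GL2.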

How the data were processed

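The authors deposited raw read counts per gene for 116 libraries, whole numbers with no normalization. Per the submitters' processing notes, HISAT2, featureCounts and the TAIR10 genome were used. The strand setting and the handling of reads with several matches are not given in the sources used here. No column of values was left unused, since 0 belonged to other samples. Genes were filtered with filterByExpr and library sizes scaled by TMM. A model with 1 mean per group was fitted to the 58 root libraries in R 4.3.3 with edgeR 4.0.16, and to all 116 libraries for root against shoot, so CPM differ between the 2 fits. Quasi-likelihood p-values were adjusted by Benjamini-Hochberg over all tested genes, with a threshold of 0.05. Standard errors came from the size of a change and its F statistic. DESeq2 1.42.0, its size factors, no filter, a block, the compared libraries alone and leaving out libraries were the alternatives.

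All 60 pairs of replicates of a root group differed by more than sampling noise. A check of whether equal replicate numbers mark paired libraries is given in the closing section.

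The genes and lists were chosen with earlier results of these data known. Named genes are the 9, and from each list up to 4 called genes averaging 5 CPM or more, with the highest and lowest changes at the time with most calls among the 9. Ties between times (2 for ABA, 3 for SA) were broken by the larger median, which was decided after the values were seen. Of the identifiers, 27444 of 27655 matched RefSeq's TAIR10.1 annotation, from which symbols, exon lengths and promoters were read. Protein sequences were not used here.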

Additional observations from a re-analysis of the deposited data

Results flagged for a closer look

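One value stood far from its group: EXP7 had 70.3 CPM in 1 of the 4 control libraries at 0 h, with a gap to the nearest library of 0.907 of the range of the group. The limit used to flag a value is passed by chance in about 1 in 20 groups, and all 9 genes were checked against it.

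The effect of SA differed between times by edgeR's joint quasi-likelihood test in all 9 genes, with adjusted p-values of 3.59e-17 for RHD6, 5.2e-07 for RSL2, 4.38e-13 for RSL4, 1.34e-13 for GL2, 1.42e-19 for EXP7, 9.06e-16 for EXPA18, 9.63e-15 for COBL9, 4.18e-14 for PRP3 and 4.47e-13 for LRX1. Tests of single pairs of times gave the size of these differences on the log2 scale, each as the later effect minus the earlier one. Between 4 h and 7 h they were -0.56 for RHD6, 0.97 for RSL4, 2.36 for EXP7, 2.19 for EXPA18, 1.63 for COBL9, 1.83 for PRP3 and 2.05 for LRX1. Between 24 h and 48 h they were -1.32 for RSL4, -1.79 for EXP7, -2.35 for EXPA18, -1.59 for COBL9, -2.53 for PRP3 and -2.16 for LRX1. Both of these pairs of times were chosen after the values were seen. Between 4 h and 48 h the differences were -1.34 for RHD6, -1.10 for RSL2, -0.86 for COBL9 and 0.77 for PRP3.

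The effect of ABA differed between times in RSL4 (adjusted p = 0.0452), GL2 (adjusted p = 4.46e-04) and COBL9 (adjusted p = 0.0358) by the same edgeR test.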

How the results depend on the processing

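Of 2826 recomputed values for single genes, 0 reversed between called directions, and 38 changed sign while not called under either setting. With DESeq2 size factors 249 of 252 values kept their direction and their side of the threshold, without the filter on low counts 248 of 252, with DESeq2 in place of edgeR 244 of 252, and with only the compared libraries fitted 154 of 162. Leaving out a library or a replicate number kept 1585 of 1656, with 49 calls lost and 22 gained.

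The number of the 9 genes called moved by more than 1.5 times in a few cases. For ABA at 7 h it was 5 without ABA replicate 1, and 3 to 5 over the libraries left out. For the difference of the ABA effect between times it was 1 to 5 over the replicate numbers left out. Over the libraries left out, counts for ABA against control ranged from 3 to 3 at 1 h, 5 to 8 at 2 h, 4 to 7 at 4 h, 5 to 6 at 24 h and 5 to 6 at 48 h. For SA they were 6 to 9 at 1 h, 8 to 8 at 2 h, 8 to 9 at 4 h, 5 to 6 at 7 h, 7 to 7 at 24 h and 9 to 9 at 48 h. The cause of these moves was not tested.

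The replicate numbers were not taken to pair the root libraries, since the correlation was not over 0.1 in every pair. Weak pairing would fail this rule too, so it cannot show that the libraries were unpaired. Deviations of same-numbered libraries correlated at 0.0805 on average over 54 pairs, 25 of them over 0.1, with a lowest value of -0.242. Over 108 pairs of different number the average was -0.0402, with 20 of them over 0.1. Deviations were taken from the mean of each group, which largely fixes this average once the same-number average is given. It is therefore not a separate comparison. With the replicate number as a block, 236 of 243 values kept their side of the threshold, 1 call was lost and 6 were gained, and 5 genes were called for the difference of the ABA effect between times, against 3 without it.

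Depth limits RSL2 and RSL4 most, at 16 to 18 reads in the shallowest SA library at 2 h. The whole-root samples, the 3 libraries per group and the library-name prefixes limit every comparison.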
